A study of Mus musculus with 9 samples.

Results

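Open chromatin after loss of Hoxa9 was compared directly with open chromatin after loss of Prmt1 in mouse LSK cells. LSK cells are lineage-negative, Sca-1-positive, Kit-positive bone marrow cells that hold the haematopoietic stem cells and early progenitors. The comparison rested on the ATAC-seq peak lists of 2 HOXA9_KO and 2 PRMT1_KO libraries. ATAC-seq cuts accessible DNA with the Tn5 transposase, so that a peak marks a stretch of open chromatin. Peaks of the 4 libraries that shared at least 1 bp were merged on the autosomes, each list was ranked by the −log10 p-value of its peaks, and each was shortened to its 38961 strongest peaks, as many as the shortest list held. A region was counted as stronger in a mutant when it lay among the strongest 19480 peaks of both libraries of that mutant and outside the strongest 38961 peaks of both libraries of the other. Of 58166 regions with a peak in a shortened list, 550 differed. There were 263 regions stronger in HOXA9_KO, 0.452% of all tested regions, and 287 stronger in PRMT1_KO, 0.493%. The whole series of 9 libraries merged into 76253 regions on all chromosomes.

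Hoxa9 encodes a homeodomain transcription factor of the posterior HOXA cluster that binds DNA together with PBX and MEIS proteins. It sustains the self-renewal of haematopoietic stem and progenitor cells and is a driver of acute myeloid leukaemia when overexpressed. Prmt1 encodes the main asymmetric arginine methyltransferase of mammalian cells, which methylates histone H4 and many other nuclear proteins and generally favours transcription. HOX factors act on regulatory DNA by sequence, while PRMT1 acts through cofactors that bring it to chromatin.

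The mutants are named KO in the sample titles but HOXA9 knockdown and PRMT1 knockdown in the genotype tags; the title names are kept here. The other libraries of the series were 2 WT, 2 Bcat_KO (β-catenin loss) and 1 dKO (loss of β-catenin and Hoxa9 together). The series text names primary transplanted mice only for the Prmt1KO, so donor or host cells and their proportions are unknown for the other groups. No label gives the strain, the age, the Cre or the promoter behind a deletion, or says that replicate libraries stem from different animals. Spread between libraries may therefore be technical. Each library used 50000 cells, 30 min of tagmentation and 10 PCR cycles.

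The sequences of 4 promoters, 2 for each direction, are printed as examples of gene starts that lay wholly under a differing peak. They were picked by hand among 8 such starts and stand for few of the differing regions, most of which lay away from gene starts. Each is the 250 bases before the gene start of RefSeq on GRCm38.p6, on the strand of the gene. Capitals mark matches to any of 14 motifs searched on both strands. The letters of the MEIS motif and of the E-box can overlap, and no other pair was checked for overlap. Armh4 (chr14:49783384-49783633, minus strand) and Lipe (chr7:25390113-25390362, minus strand) were stronger in HOXA9_KO. Trem1 (chr17:48232489-48232738, plus strand) and Mmp8 (chr9:7558179-7558428, plus strand) were stronger in PRMT1_KO.
Armh4: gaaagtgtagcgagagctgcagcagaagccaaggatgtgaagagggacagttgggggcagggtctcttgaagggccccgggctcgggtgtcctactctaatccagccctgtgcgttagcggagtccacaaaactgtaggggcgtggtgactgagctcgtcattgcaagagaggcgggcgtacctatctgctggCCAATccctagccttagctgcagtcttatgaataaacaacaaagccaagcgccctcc
Lipe: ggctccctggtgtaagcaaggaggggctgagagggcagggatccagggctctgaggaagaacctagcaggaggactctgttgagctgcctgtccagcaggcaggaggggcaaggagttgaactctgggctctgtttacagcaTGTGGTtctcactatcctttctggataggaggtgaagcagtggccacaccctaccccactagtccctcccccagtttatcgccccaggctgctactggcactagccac
Trem1: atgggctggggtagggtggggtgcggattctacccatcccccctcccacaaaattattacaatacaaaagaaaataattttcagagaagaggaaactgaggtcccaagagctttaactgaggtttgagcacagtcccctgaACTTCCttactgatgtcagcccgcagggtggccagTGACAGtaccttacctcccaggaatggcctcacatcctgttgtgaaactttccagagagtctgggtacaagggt
Mmp8: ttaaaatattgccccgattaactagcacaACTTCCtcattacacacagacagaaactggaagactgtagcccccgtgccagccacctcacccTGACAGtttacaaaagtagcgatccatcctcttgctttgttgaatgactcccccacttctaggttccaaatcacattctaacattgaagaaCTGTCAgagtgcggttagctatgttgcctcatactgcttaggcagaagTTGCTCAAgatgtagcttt

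The capitals in Armh4 are an NF-Y box (CCAAT), those in Lipe a RUNX motif (TGTGGT). In Trem1 they are an ETS motif (GGAAGT, here on the other strand) and a MEIS motif (TGACAG). In Mmp8 they are an ETS motif, a MEIS motif on each strand and a CEBP motif (TTGCNNAA). Over 31365 autosomal promoter windows of the same length, 33.7% held CCAAT, 14.0% TGTGGT, 19.8% GGAAGT, 15.7% TGACAG and 9.66% TTGCNNAA, so that each of these matches is common. In each direction, 6 of the 9 differing gene starts had a promoter window overlapping the peak, and 1 window was counted per gene. These were Armh4, Lsamp, Pcdh18, Lipe, Gm3512 and Olfm4 for HOXA9_KO and Trem1, Gmfg, Tnfrsf12a, Mmp8, Emp3 and Ank2 for PRMT1_KO. MEIS letters were found in 3 of the 6 windows stronger in PRMT1_KO and in 0 of the 6 stronger in HOXA9_KO. MEIS was not alone in differing. The NF-Y box was in 1 window stronger in PRMT1_KO and 4 stronger in HOXA9_KO, and the E-box in 2 and 0. The letters of a posterior HOX motif (TTTATGG) and of a PBX-HOX motif (TGATTTA) were in none of these 12 windows, against 2.44% and 2.58% of all windows. The remaining searches were for AGATAA, bound by zinc-finger factors of the GATA family, and for TGANTCA, the element of AP-1. They also covered the core of the CTCF motif with the letters AGGGGGC, and CTTTGAT, the element of TCF/LEF proteins. Last came the E-box CAGATG, the element of SP/KLF proteins with the letters GGGCGGG, and the NRF1 element with the letters GCGCATG. The median GC content of the windows was 57.8% for the 6 stronger in HOXA9_KO and 49.6% for the 6 stronger in PRMT1_KO, beside 61.2% over the 13853 windows under a tested region. These are descriptions of letters in short windows of few genes.

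All 4 libraries had start peaks at genes listed as LSK markers. Of 15 LSK markers, 10 could be matched to a gene start, and a start peak was present at 7 and 10 of them in the HOXA9_KO libraries and at 8 and 7 in the PRMT1_KO libraries. Kit, Cd34, Flt3, Fgd5, Ctnnal1 and Itga2b had one in all 4. Ly6a, the gene of Sca-1, was on the list but not among the matched genes. Markers of other cell types, such as Pf4, Epor and Cebpa, also had a start peak in all 4, so these peaks do not establish the cell type. The lists held 39885 and 41349 peaks in HOXA9_KO and 44513 and 39881 in PRMT1_KO. The background depth inferred from fold and p-value was higher in PRMT1_KO, at 11.2 and 10.9 reads per kb, than in HOXA9_KO, at 8.27 and 8.67. Depth thus moved with the genotype, and its part in the results was not tested. Shortening the lists gives each library the same number of peaks but does not equalise depth. Libraries of the same genotype were more alike than libraries of different genotypes. The Jaccard index, the shared regions over all regions of a pair of shortened lists, was 0.635 within HOXA9_KO, 0.680 within PRMT1_KO and 0.568 to 0.598 in the 4 pairs across. With 2 libraries against 2, the smallest p that an exact permutation test can give is 1 in 3, so no region carries a p-value. In bulk libraries such as these, fewer cells with an open region and less opening per cell cannot be told apart.

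The peaks at the targeted genes did not check the labels, since the labels do not give the extent of any deletion. The region at the Hoxa9 start (chr6:52225899-52226481, GRCm38) had a fold over the local background of 4.45 and 5.09 in HOXA9_KO and 4.57 and 6.23 in PRMT1_KO. The region at the Prmt1 start (chr7:44986242-44987166) had 14.6 and 16.0 in HOXA9_KO and 16.2 and 17.6 in PRMT1_KO. The region at the start of Ctnnb1, the gene of β-catenin, had 9.43 and 9.70 against 8.60 and 10.7. Each of these starts had a peak in all 4 libraries. Fold is the authors' value of 1 peak in 1 library. It is not normalized between libraries and is given to describe peaks.

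The differing regions were peaks of middle height. In the libraries where they were strong, the median fold was 8.07 and 8.57 for the regions stronger in HOXA9_KO and 8.06 and 7.75 for those stronger in PRMT1_KO. The reads at the summit, recovered from fold and p-value, had a median of 19 (range 15 to 46) and 19 (15 to 48) in the HOXA9_KO libraries. They had a median of 24 (18 to 60) and 21 (16 to 55) in the PRMT1_KO libraries. A peak at the background of the list floor needed at least 6 reads in HOXA9_KO and 7 in PRMT1_KO. On the weak side, 248 of the 263 regions (94.3%) had no peak in either full PRMT1_KO list, and 283 of the 287 (98.6%) had none in either full HOXA9_KO list. A missing peak does not show closed chromatin, only that none was detected at the depth sequenced. Of all tested regions, 23967 (41.2%) were in all 4 shortened lists. Among the 16476 regions that were strong in both HOXA9_KO libraries, 1.6% differed, and among the 16571 strong in both PRMT1_KO libraries, 1.73% did.

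**Figure D1:**
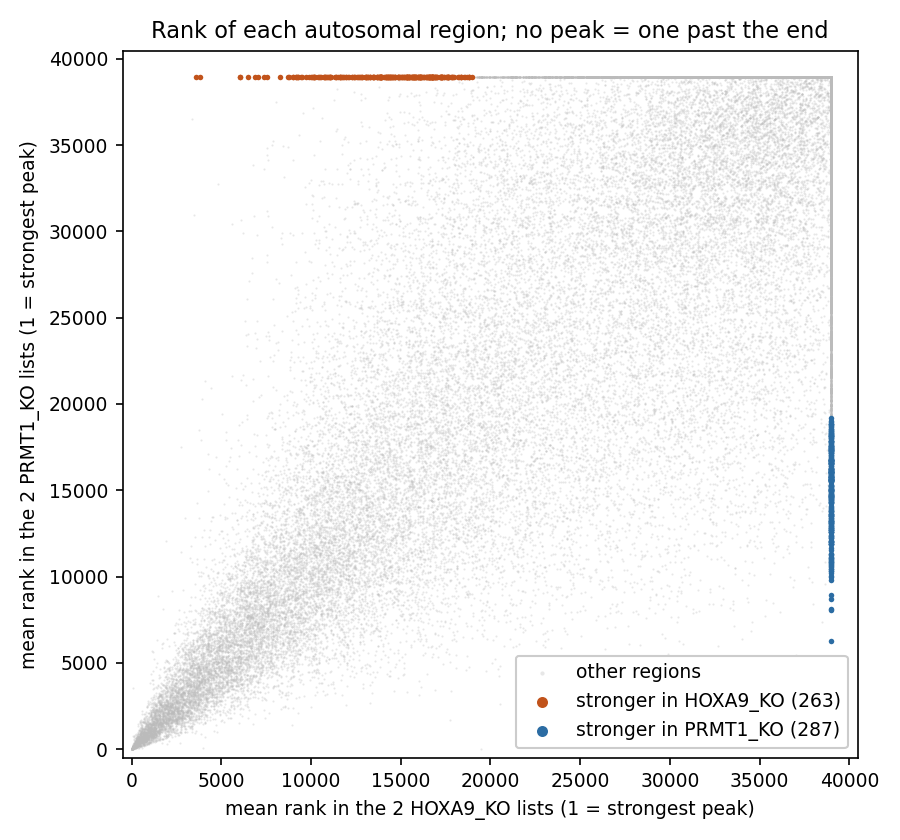
Mean rank of each autosomal region in the 2 PRMT1_KO libraries (vertical axis) against its mean rank in the 2 HOXA9_KO libraries (horizontal axis), both linear, rank 1 being the strongest peak and a region without a peak placed one past the end of the list of 38961. Grey points are the tested regions, coloured points the 263 regions stronger in HOXA9_KO and the 287 stronger in PRMT1_KO, which lie along the outer edges because the rule places them there.

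The members nearest the thresholds show how the rule divides a continuous scale. The last region inside the strong threshold of HOXA9_KO lay in Zranb3, with a worst rank of 19476 and folds of 6.84 and 7.07. The first outside it, on chromosome 8 with no gene within 50 kb, had a rank of 19490 and folds of 5.88 and 6.93. In the other direction, a region on chromosome 17 with folds of 8.88 and 6.42 in PRMT1_KO ranked 19476 and was counted, and one near Parp8 with 7.30 and 7.41 ranked 19485 and was not. On the weak side, the Armh4 start had a faint peak in PRMT1_KO replicate 1 at rank 39085, and a region in Gnat3 had one in HOXA9_KO replicate 2 at rank 39021, just beyond the shortened lists. Their uncounted neighbours were a region on chromosome 10 at rank 38854 and one near Nol4l at rank 38938.

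The strongest regions of HOXA9_KO lay mostly far from genes. Of the 10 with the best worst rank, 6 had no protein-coding gene within 50 kb. The strongest of all (chr5:79734832-79735218) had a fold of 16.2 and 18.9 in HOXA9_KO, no peak in PRMT1_KO, 7.23 and 6.40 in WT, 3.89 and 7.60 in Bcat_KO and 8.90 in the dKO. It had a peak in every genotype except PRMT1_KO. The next (chr7:93254179-93254819) had 16.0 and 18.5 in HOXA9_KO, 5.61 and 8.49 in Bcat_KO and 6.16 in the dKO, with no peak in PRMT1_KO or WT. It was 1 of 3 regions of this direction within 131 kb of chromosome 7. Another region without a gene (chr6:76387345-76388071) had 11.5 and 11.8 in HOXA9_KO, 9.36 in the dKO and 5.51 in Bcat_KO replicate 1, and a peak in no other library. The remaining gene-free regions had no peak in PRMT1_KO or the dKO. One (chr5:132883996-132884666) had 12.5 and 12.9 in HOXA9_KO, 8.61 and 14.5 in Bcat_KO and 4.92 in WT replicate 2. A second (chr13:85724045-85724962) had 11.1 and 15.3 in HOXA9_KO, 9.21 and 9.38 in Bcat_KO and 7.14 and 5.78 in WT. The last (chr5:39832542-39832955) had 13.0 and 11.6 in HOXA9_KO, 5.61 and 9.18 in Bcat_KO and no WT peak. Of these 10 regions, 0 had a peak in PRMT1_KO, 7 had none in WT, 6 had one in both Bcat_KO libraries and 4 had one in the dKO.

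The other 4 of the 10 lay in or near genes, and 3 of them are described here. Nav3, a neuron navigator protein of the cytoskeleton, held an internal region (chr10:109924224-109924627) with 12.5 and 11.2 in HOXA9_KO and 6.68 and 10.1 in Bcat_KO, and no peak elsewhere. Fstl5, a secreted follistatin-like protein, held a region (chr3:76251367-76251719) with 11.5 and 12.7 in HOXA9_KO and no peak in the other 7 libraries. The other region in Fstl5, with 7.06 and 7.28, was likewise found in HOXA9_KO alone. Mettl25, a methyltransferase-like protein, lay 2.39 kb from a region with 11.0 and 10.3 in HOXA9_KO and 5.18 in Bcat_KO replicate 1.

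The strongest regions of PRMT1_KO lay closer to genes and more often had a peak in WT and Bcat_KO, but not in the dKO. Only 2 of the 10 had no gene within 50 kb, 6 had a peak in both WT libraries, 9 in both Bcat_KO libraries and 0 in the dKO. Fyb2, an adaptor protein related to the T cell adaptor FYB1, held the strongest (chr4:104948799-104949482), with 12.8 and 15 in PRMT1_KO, 13.7 and 11.2 in Bcat_KO, 3.95 in WT replicate 1 and no peak in HOXA9_KO or the dKO. Klhl2, a substrate adaptor of a ubiquitin ligase, lay 46.6 kb from a region with 14.3 and 14.7 in PRMT1_KO, 8.93 and 5.42 in WT and 9.93 and 11.2 in Bcat_KO. Xrcc4, the partner of DNA ligase IV in the joining of broken DNA ends, held a region (chr13:89888958-89889577) with 12.7 and 17.1 in PRMT1_KO, 15.3 and 13.1 in WT and 10.8 and 9.84 in Bcat_KO. The same region had no peak in HOXA9_KO replicate 1 and only 3.19 in replicate 2. Of the 7 regions assigned to Xrcc4, only this 1 differed. In it, WT, Bcat_KO and PRMT1_KO were all high, and the HOXA9_KO libraries had a low peak or none.

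The same layout held near C3ar1, the complement C3a receptor of myeloid cells. A region 6.44 kb from it (chr6:122862599-122863272) had 11.6 and 13.0 in PRMT1_KO, 8.93 and 8.37 in WT and 7.77 and 8.49 in Bcat_KO, and no peak in HOXA9_KO or the dKO. Eya1, a transcriptional co-activator and phosphatase, lay 24.7 kb from a region with 12.7 and 12.8 in PRMT1_KO, 6.81 and 6.40 in WT and 8.64 and 10.0 in Bcat_KO. Dkk2, a secreted modulator of Wnt receptors, lay 49.6 kb from a region with 9.97 and 9.28 in PRMT1_KO, and the region in Otulinl had 8.85 and 10.4. Both had peaks in all 4 WT and Bcat_KO libraries. Magi1, a scaffold protein of cell junctions, held a region with 10.5 and 10.7 in PRMT1_KO and 8.20 and 6.54 in Bcat_KO, and no peak in WT.

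**Figure D2:**
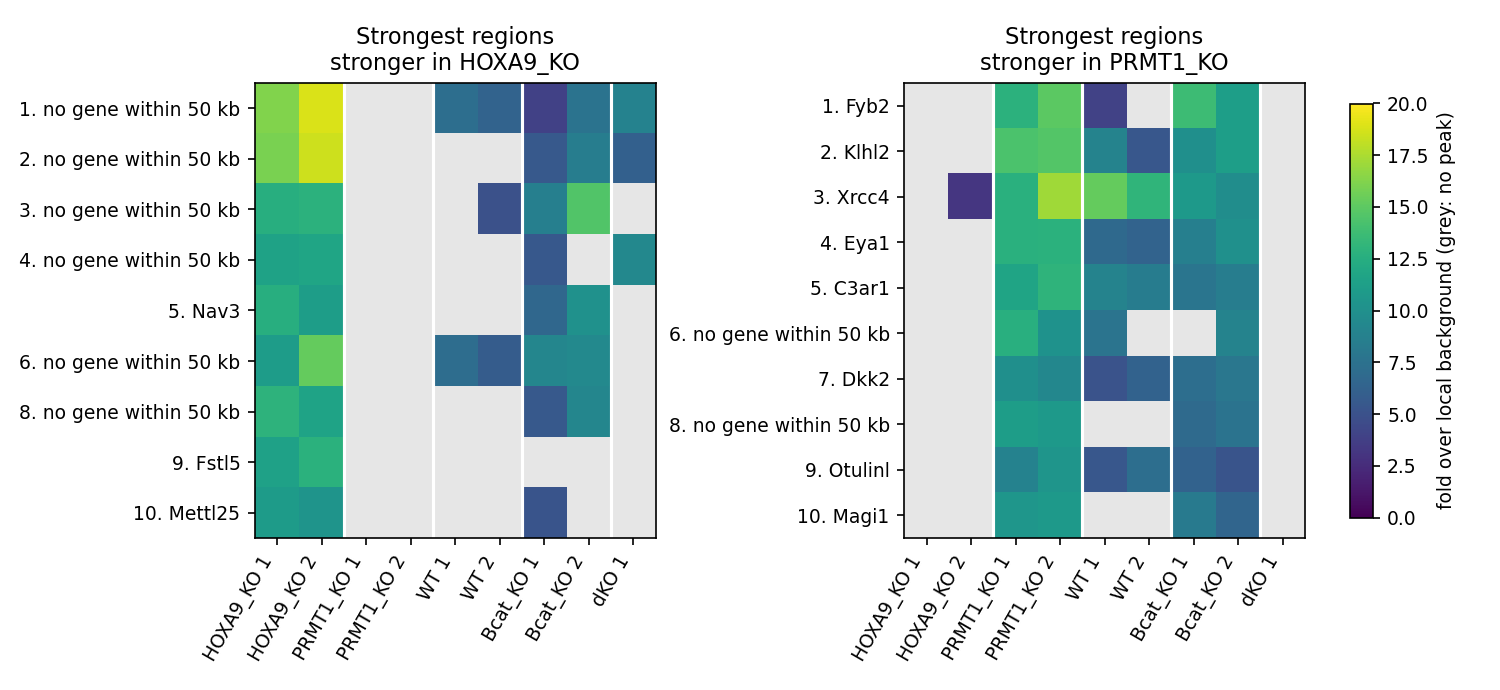
Fold over the local background (colour, linear scale from 0 to 20, grey where the library has no peak) in each of the 9 libraries (columns) for 9 of the 10 strongest regions of HOXA9_KO and the 10 strongest of PRMT1_KO (rows, numbered by strength and named by the gene they lie in or nearest to within 50 kb). The left rows are grey in both PRMT1_KO libraries and in most WT libraries, and the right rows are grey in HOXA9_KO, except Xrcc4 in replicate 2, and in the dKO.

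Few differing regions were promoters. In each direction, 9 regions lay within 1 kb of a gene start. The 6 strongest of each direction are described first. Trem1, a receptor that amplifies inflammation on neutrophils and monocytes, had 8.71 and 7.22 at its start (chr17:48232455-48232849) in PRMT1_KO, 6.28 in Bcat_KO replicate 1 and 4.37 in WT replicate 2. Mmp8, the neutrophil collagenase, had 6.91 and 7.23 (chr9:7558106-7558619) in PRMT1_KO, 3.52 and 5.52 in Bcat_KO and 4.32 in WT replicate 1. Ctsz, a lysosomal cathepsin, had 5.41 and 6.23 in PRMT1_KO and a peak in each WT and Bcat_KO library, at 3.87 to 5.91. None of these 3 starts had a peak in either HOXA9_KO library or in the dKO. The start regions of Gmfg, an actin regulator of blood cells, with 4.49 and 4.27, and of Tnfrsf12a, the TWEAK receptor, with 4.96 and 4.71, had a low fold but 31 to 51 summit reads in PRMT1_KO. Both had peaks in both Bcat_KO libraries and in no WT library. The Vps4a region, 0.915 kb from the start of this ESCRT ATPase gene, had 6.01 and 6.55.

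In the other direction, the Armh4 start (chr14:49782935-49783714) had 8.76 and 10.5 in HOXA9_KO, 3.84 in PRMT1_KO replicate 1, 3.01 in WT replicate 1, 5.01 and 6.26 in Bcat_KO and 7.89 in the dKO. Lsamp, a neuronal adhesion protein, had 9.37 and 9.0 in HOXA9_KO at its start, 5.49 in WT replicate 1, 5.61 and 3.58 in Bcat_KO and 7.70 in the dKO. Pcdh18, a protocadherin, had 7.83 and 7.82 in HOXA9_KO and values of 3.83 to 7.01 in all 5 WT, Bcat_KO and dKO libraries, with no peak in PRMT1_KO. Pcdh18 thus had a start peak in every genotype but PRMT1_KO, where the rule asks for none in the shortened lists. Lipe, the hormone-sensitive lipase, had 6.53 and 8.18 in HOXA9_KO, 3.56 and 4.37 in WT and 3.42 in Bcat_KO replicate 2. Pde1b, a cyclic nucleotide phosphodiesterase, had 10.5 and 9.93 in HOXA9_KO, 5.29 in WT replicate 1 and 7.96 and 6.56 in Bcat_KO. The region near the start of Tcl1b1 had 7.50 and 7.69 in HOXA9_KO, 3.40 in WT replicate 1 and 4.17 and 5.86 in Bcat_KO. Olfm4, a granule protein of neutrophils named here after its values were seen, had 7.95 and 7.74 at its start in HOXA9_KO, 7.26 and 9.84 in Bcat_KO and no peak in PRMT1_KO, WT or the dKO. Starts of genes of mature myeloid cells were thus found in both directions, but in that of HOXA9_KO this rests on Olfm4. Listed granulocyte and monocyte markers, given below, had more start peaks in PRMT1_KO than in HOXA9_KO.

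**Figure D3:**
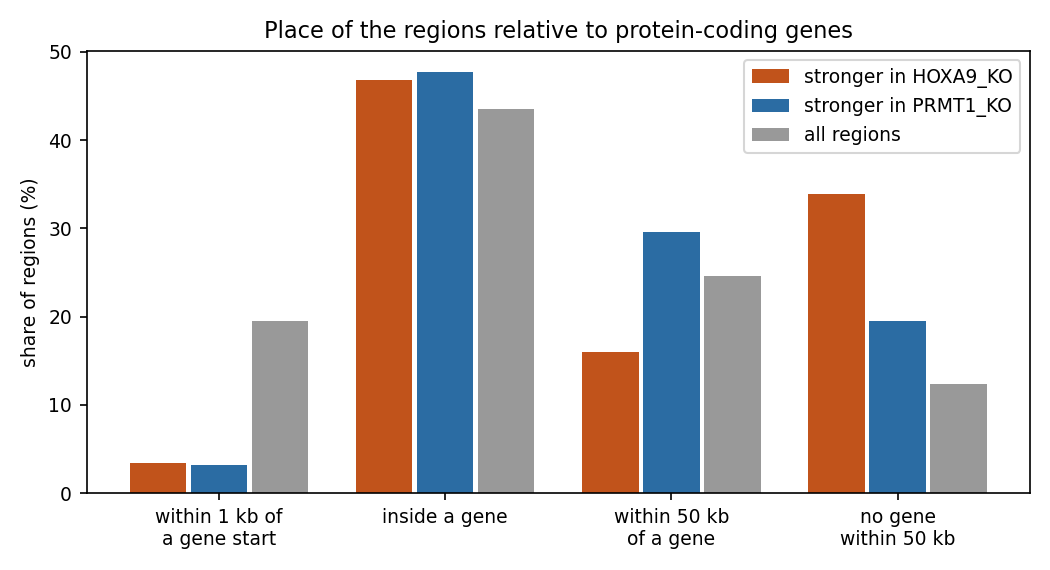
Share of regions (vertical axis, percent) by place relative to protein-coding genes: within 1 kb of a start, inside a gene, within 50 kb of one, or farther. Bars stand for the regions stronger in HOXA9_KO, those stronger in PRMT1_KO and all 58166 tested regions; start regions were 3.42% and 3.14% of the differing regions and 19.5% of all, and regions without a gene within 50 kb were 33.8%, 19.5% and 12.3%.

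Position was not used to choose the regions. Of the 263 regions stronger in HOXA9_KO, 89 (33.8%) had no gene within 50 kb, against 56 of 287 (19.5%) stronger in PRMT1_KO and 12.3% of all tested regions. Regions near a gene but outside it made up 16.0% and 29.6%, and regions inside a gene 46.8% and 47.7%. Peaks of similar rank are a closer background. Of the 8126 regions whose worse HOXA9_KO rank lay between 9740 and 19480, 10.4% had no gene within 50 kb and 29.1% lay at a start. Of the 8168 regions in the same band of PRMT1_KO, 10.2% had no gene within 50 kb and 27% lay at a start. Both kinds of differing region were thus poorer in gene starts than peaks of their rank, and those stronger in HOXA9_KO lay in gene-poor sequence more often than those stronger in PRMT1_KO. The median width was 410 bp and 385 bp, against 646 bp and 631 bp in those bands. Width is the extent of the peaks merged over the libraries, and most differing regions merge peaks of only one genotype. Narrower differing regions therefore follow in part from the rule. Regions are not replicates, and no test is given for these shares.

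The WT, Bcat_KO and dKO libraries played no part in the choice, and they held the differing regions unequally. Of the regions stronger in PRMT1_KO, WT held 191 (66.6%) and 134 (46.7%) of 287. Of the regions stronger in HOXA9_KO, WT held 79 (30.0%) and 42 (16.0%) of 263. The mean was 56.6% ± 14.0 (SD, n = 2) against 23.0% ± 9.95, and over all tested regions WT held 48.4% ± 6.59. Both WT libraries held 110 of the regions stronger in PRMT1_KO and 28 of those stronger in HOXA9_KO, and neither held 72 and 170. More of the regions stronger in PRMT1_KO were therefore open in WT and without a peak in HOXA9_KO. More of those stronger in HOXA9_KO were without a peak in WT and in PRMT1_KO. The WT lists were the shorter, with 34583 and 27536 autosomal peaks at a background of 7.38 and 6.29 reads per kb, so a region without a WT peak may have been below detection. When every list was shortened to 27536 peaks, WT held 52.8% ± 8.62 and 17.9% ± 2.69. The WT libraries also had 0 peaks on the male-specific Y chromosome, where the HOXA9_KO and PRMT1_KO libraries had 12 to 16, so sex and genotype cannot be told apart in comparisons with WT.

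Bcat_KO held most regions of both directions. It held 226 (78.7%) and 231 (80.5%) of those stronger in PRMT1_KO and 166 (63.1%) and 174 (66.2%) of those stronger in HOXA9_KO, beside 60.1% ± 0.267 of all tested regions. Of the regions stronger in HOXA9_KO, 71 (27%) had a peak in both Bcat_KO libraries and in neither WT library, as did 37 (12.9%) of those stronger in PRMT1_KO. All 4 WT and Bcat_KO libraries held 85 (29.6%) of the regions stronger in PRMT1_KO and 21 (7.98%) of those stronger in HOXA9_KO. In none of the 5 libraries was there a peak at 35 (13.3%) of the regions stronger in HOXA9_KO and at 10 (3.48%) of those stronger in PRMT1_KO. Peaks of similar rank were held more often, in WT at 85.2% and 88.3% and in Bcat_KO at 97.1% and 98.3% for the bands of HOXA9_KO and PRMT1_KO. Both kinds of differing region fell below these shares, and the rule requires of each a missing peak in 2 libraries.

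The single dKO library, labelled with loss of β-catenin and Hoxa9, held 49 of the 263 regions stronger in HOXA9_KO (18.6%, Wilson 95% interval 14.4 to 23.8%). It held 3 of the 287 stronger in PRMT1_KO (1.05%, 0.356 to 3.03%). The intervals cover counting error only, and the dKO has no replicate. Over all tested regions the dKO held 15.7%, and over the rank bands of HOXA9_KO and PRMT1_KO it held 23.6% and 21.6%. At the strict length of the dKO list, 10307 peaks, the 2 HOXA9_KO libraries themselves held 32 and 43 of their 263 regions, and the 2 PRMT1_KO libraries held 13 and 33 of their 287. At that length WT held 2 and 2 and Bcat_KO 0 and 3 of the regions stronger in HOXA9_KO, fewer than the 49 of the dKO. A count of 0 of 263 has a Wilson upper limit of 1.44%. Of the regions stronger in PRMT1_KO, WT held 12 and 11 and Bcat_KO 4 and 6 at that length. The dKO was also the shallowest library, at 2.41 reads per kb. Its peaks at the 49 regions had only 4 to 17 summit reads, and a peak at the background of its list floor needed at least 4. The dKO peak names follow another naming of the sequencing run. Its run and its genotype cannot be told apart.

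The 49 regions shared by HOXA9_KO and the dKO included the starts of Armh4, Lsamp and Pcdh18. They also included the gene-free regions chr5:79734832-79735218, chr7:93254179-93254819 and chr6:76387345-76388071, but not the other gene-free regions given above. Of the 49, 26 had no WT peak, and 24 had a peak in both Bcat_KO libraries. The 3 exceptions in the other direction were a region without a gene on chromosome 6 (chr6:114565417-114565712), one in Lmo7, and the start of Ank2, which encodes ankyrin B. The region on chromosome 6 had 11.1 and 9.89 in PRMT1_KO and 8.79 in the dKO and no peak in WT, Bcat_KO or HOXA9_KO. The Lmo7 and Ank2 regions had 3.38 and 4.11 in the dKO.

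**Figure D4:**
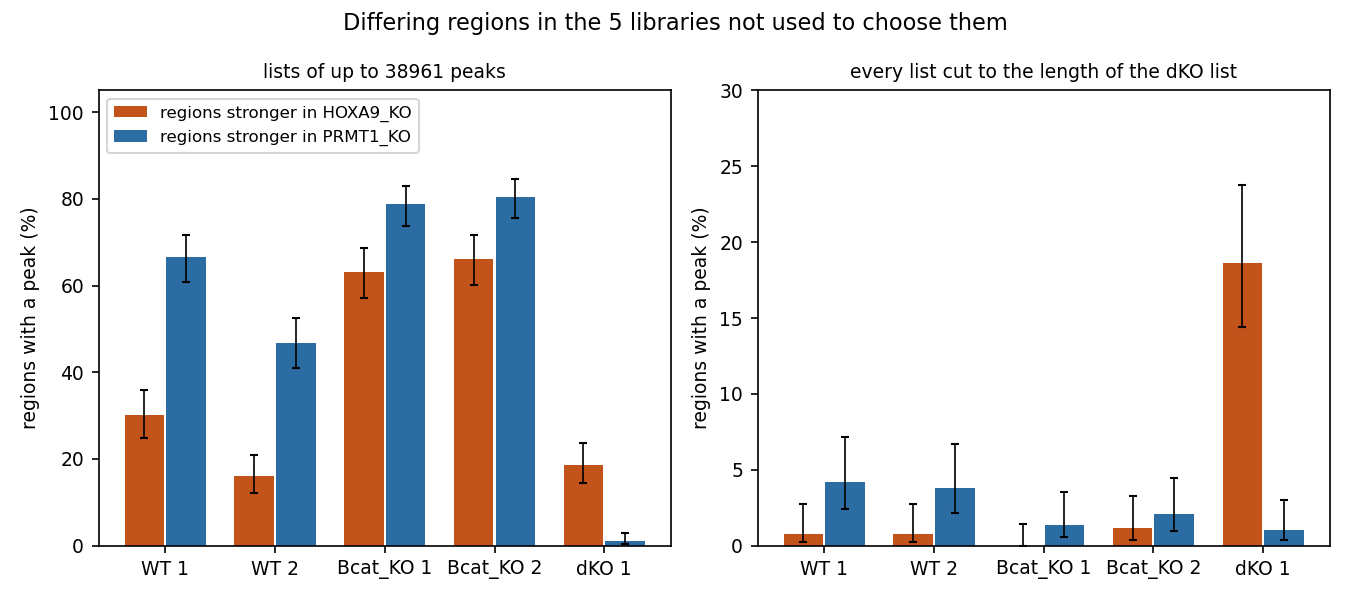
Share of the differing regions with a peak (vertical axis, percent; the panels have different scales) in each of the 5 libraries not used to choose them, with each list at up to 38961 peaks (left) and cut to the 10307 peaks of the dKO list (right). Bars are single libraries and error bars are Wilson 95% intervals for counting error; the regions stronger in PRMT1_KO stand higher in the WT and Bcat_KO libraries, and those stronger in HOXA9_KO stand at 18.6% against 1.05% in the dKO.

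Among the 15488 genes with a tested region, 166 (1.07%) had a region stronger in HOXA9_KO and 222 (1.43%) had one stronger in PRMT1_KO. Of the 51000 regions assigned to a gene, 0.341% and 0.453% differed in these directions. Against 22 lists of genes, 13 of pathways and 9 of cell type markers, differing regions were few: 9 lists held none, and the genes described as Hoxa9 targets held the most, 6. A rank difference was also taken for every region, the mean PRMT1_KO rank less the mean HOXA9_KO rank as a percent of 38961, so that a positive value means a stronger peak in HOXA9_KO. Its median over all regions assigned to genes was 0.27.

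Genes described as targets of Hoxa9 had 281 regions at 20 genes. Of these regions, 2 (0.712%) were stronger in HOXA9_KO and 4 (1.42%) in PRMT1_KO. Together they were 2.14%, beside 0.794% of all regions assigned to a gene, and the median rank difference was −2.93. The list was chosen with earlier results of these data known and no test was run, so this share does not set the list apart. Foxp1 and Etv6 alone had 46 and 38 of the 281 regions. The regions stronger in PRMT1_KO lay inside Etv6, an ETS repressor needed by stem cells in the adult marrow, Foxp1, a forkhead repressor, and Bcl2, the inhibitor of apoptosis. The Etv6 region had 7.98 and 7.15 in PRMT1_KO. A pair of regions in Foxp1 had 7.82 and 7.83, and 7.02 and 7.26, and both were open in all 4 WT and Bcat_KO libraries. The Bcl2 region had 8.34 and 7.29. None of these 4 regions had a peak in HOXA9_KO or the dKO. The regions stronger in HOXA9_KO lay inside Camk2d, a calcium/calmodulin-dependent kinase, with 8.95 and 10.0, and 8.41 kb from Ccna1, the gene of cyclin A1, with 8.72 and 8.47. Neither had a peak in PRMT1_KO or WT, and the Ccna1 region had 5.49 in the dKO. Of the 72 regions of the HOXA cluster and its cofactors, 1 differed, inside the cofactor gene Meis2, with 9.71 and 7.74 in HOXA9_KO and 3.84 in PRMT1_KO replicate 1.

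Of the 126 regions at genes of the Wnt pathway, 1 was stronger in each direction. Lgr5, the R-spondin receptor of epithelial stem cells, held a region with 8.44 and 8.93 in HOXA9_KO, and Tcf7l2, a nuclear partner of β-catenin, held one with 8.18 and 8.21 in PRMT1_KO. The Lgr5 region had a faint peak of 4.32 in Bcat_KO replicate 1, and the Tcf7l2 region had 6.90 and 6.46 in Bcat_KO. Among 128 regions at Notch pathway genes, 1 differed, inside the co-activator gene Maml2, with 7.69 and 7.12 in PRMT1_KO. Irf8, a transcription factor of monocytes and dendritic cells on the interferon list, lay 35.9 kb from a region with 7.08 and 6.80 in PRMT1_KO. The share that differed was 1.59% for the Wnt list, 0.781% for Notch and 1.45% for interferon. Beside these, 0.794% of all regions assigned to a gene differed.

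Genes of genome maintenance and the cell cycle gave single regions also. Xrcc4 carried the 1 differing region of 72 at genes of DNA damage and repair. Pmaip1, a pro-apoptotic p53 target, lay 2.37 kb from the 1 differing region of 49 at p53 targets, with 6.17 and 6.79 in PRMT1_KO. Cdk1, the mitotic kinase, lay 13.5 kb from the 1 of 73 at cell cycle genes, with 7.50 and 11.8 in HOXA9_KO. No region differed among 69 at DNA replication genes, 175 at stem cell transcription factors, 142 at chromatin regulators, 102 at TGF-beta genes and 20 at arginine methyltransferases. Of all regions assigned to a gene, 0.794% differed. At that share lists of these sizes hold few differing regions or none, so these counts set no list apart.

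Markers of cell types other than LSK cells gave 5 differing regions of 267 over 8 lists (1.87%), beside 0.794% of all regions assigned to a gene. These lists too were chosen with earlier results of these data known, and no test was run. Stronger in HOXA9_KO were regions in Tcf4, a factor of plasmacytoid dendritic cells, with 7.85 and 7.64, in Rab27b, a granule protein of platelets, with 7.62 and 7.74, and in the stromal collagen gene Col3a1, with 7.06 and 7.28. Stronger in PRMT1_KO were a region in Ebf1, the B cell factor, with 7.30 and 7.41, and one 11.3 kb from Klrb1c, an NK cell receptor, with 5.41 and 6.95. Granulocyte and monocyte markers held no differing region among 55, but their median rank difference was −10.8, the lowest of the 22 lists. Start peaks of these markers come from the same peak lists, so they are not separate evidence. Of 18 matched genes, 4 and 4 had one in HOXA9_KO, 10 and 9 in PRMT1_KO, 7 and 6 in WT, 6 and 8 in Bcat_KO and 2 in the dKO. Mpo, the myeloperoxidase of granules, Ly6c2, Fcgr3 and Cx3cr1 had a start peak in both PRMT1_KO libraries and in neither HOXA9_KO library. The granule genes Elane, Prtn3 and Ngp, as well as Ly6g, S100a9 and Ccr2, had none in any of the 9 libraries. These values stand beside the Trem1, Mmp8 and C3ar1 regions, and the part of a different share of myeloid progenitors or cells in those regions was not tested. Erythroid markers had a median of 6.21 over 14 regions and B cell markers −7.26 over 19. Of 8 B cell markers matched to a start, 1 and 1 had a start peak in HOXA9_KO and 2 and 2 in PRMT1_KO, and Pax5, Cd79a, Vpreb1, Igll1 and Rag2 had none. Of 8 matched dendritic cell markers, 2 and 3 had a start peak in HOXA9_KO and 4 and 5 in PRMT1_KO. Erythroid markers went the other way, with 4 and 4 of 9 in HOXA9_KO and 3 and 3 in PRMT1_KO.

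Some genes carried more than 1 differing region: 8 in the direction of HOXA9_KO only, 8 in that of PRMT1_KO only and 2 with 1 region each way. The genes named here were chosen after their values were seen. Lyn, a Src family kinase of myeloid and B cells, held 3 of its 18 regions stronger in PRMT1_KO. They had 7.62 and 6.54, 8.26 and 9.46, and 9.80 and 9.28, and none had a peak in HOXA9_KO or the dKO. The middle one was open in Bcat_KO (8.59 and 9.12) and not in WT. Spidr, a scaffold protein of homologous recombination, held 2 stronger in PRMT1_KO, with 11.0 and 8.24, and 5.40 and 5.75. In the other direction, Klf12, a zinc-finger repressor, held 2 stronger in HOXA9_KO, with 7.50 and 10.0, and 7.60 and 7.04. Nck2, an adaptor of tyrosine kinases, held 1 region each way, 6.69 and 6.45 in HOXA9_KO and 7.37 and 7.0 in PRMT1_KO.

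**Figure D5:**
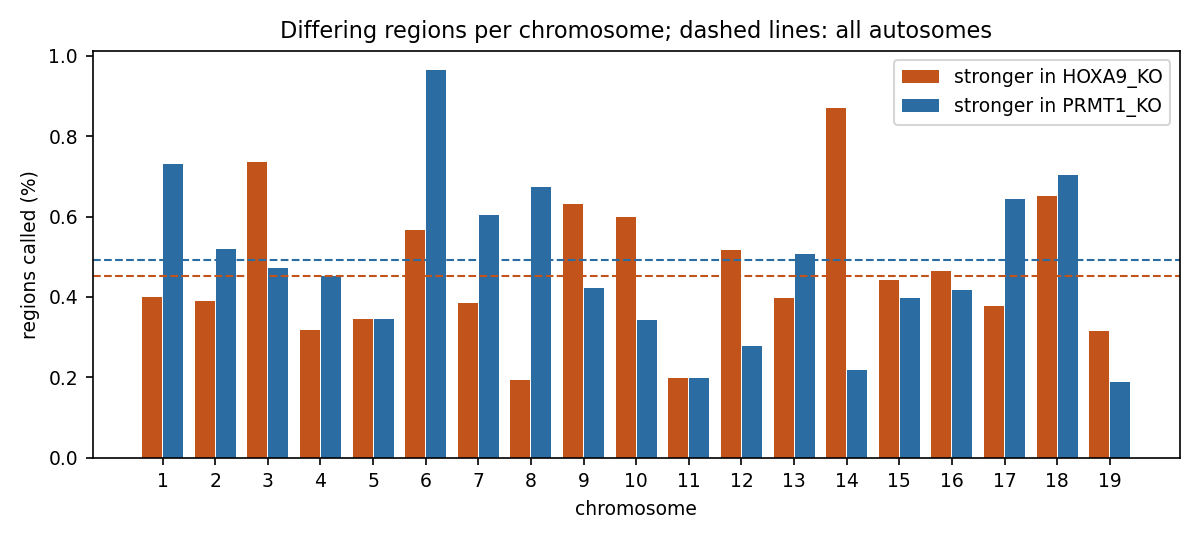
Share of the tested regions on each autosome (vertical axis, percent) counted as stronger in HOXA9_KO or in PRMT1_KO, with dashed lines at the shares over all autosomes, 0.452% and 0.493%. Chromosomes 6 (0.964%) and 14 (0.871%) carry the tallest bars, in opposite directions.

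The split between the directions varied over chromosomes. Over all autosomes, 0.493% of tested regions were stronger in PRMT1_KO and 0.452% in HOXA9_KO. Of 3527 tested regions on chromosome 6, 34 (0.964%) were stronger in PRMT1_KO and 20 (0.567%) in HOXA9_KO. Chromosome 8 held 21 and 6 of 3120, and chromosome 14 held 5 and 20 of 2297. Chromosome 3 held 16 and 25 of 3394, and chromosome 10 held 12 and 21 of 3500. These were picked for their uneven split. Chromosome 5 held 13 and 13 of 3755, and chromosome 11 held 7 and 7 of 3519. The 10 Mb window with the most regions of 1 direction was chromosome 6 from 120 to 130 Mb, where 7 of 456 tested regions were stronger in PRMT1_KO and 1 in HOXA9_KO. The regions near C3ar1 and Klrb1c lie there. On chromosome 10 from 100 to 110 Mb, 5 of 141 were stronger in HOXA9_KO and 0 in PRMT1_KO, the Nav3 and Mettl25 regions among them, a larger share of the tested regions than in the window of chromosome 6. On chromosome 1 from 10 to 20 Mb, 4 of 166 were stronger in HOXA9_KO and 3 in PRMT1_KO. Within 10 Mb of Hoxa9, 3 of 431 tested regions were stronger in HOXA9_KO and 4 in PRMT1_KO. Within 10 Mb of Prmt1 the counts were 0 and 3 of 455. A region of the same direction lay within 1 Mb of 75 (28.5%) of the regions stronger in HOXA9_KO and of 94 (32.8%) of those stronger in PRMT1_KO, and one of the opposite direction within 1 Mb of 58 and 57.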

How the data were processed

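Reads were mapped by the authors to GRCm38/mm10 using Bowtie2 2.4.2, SAMtools 1.14 and Picard 2.27.4 were applied, and MACS2 was run library by library, per the submitters' processing notes. Settings are not given in the sources used here; the peak names show that duplicate and unmapped reads were taken out. The deposited lists hold per peak a score (10 times the −log10 q-value), the fold enrichment at the summit (a ratio to the local background), the −log10 p-value and −log10 q-value, and the summit offset. None is normalized between libraries.

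Python 3.11.15 with pandas 2.3.3, NumPy 2.4.6 and SciPy 1.17.1 was used here to merge peaks (1 bp), rank them and count differing regions. The members and gene lists were chosen with earlier results of these data known. Fold and p-value together gave whole summit reads within 0.01 for at least 99.7% of peaks in each library, and the background depth was taken from them; it is inferred. Regions were assigned to the RefSeq protein-coding gene (GRCm38.p6) they lie in or, failing that, to the nearest end within 50 kb. Promoter sequences are from RefSeq. Named in the text, per direction, are the 10 strongest regions, the 6 strongest at a gene start (within 1 kb), every differing region of a listed gene, and Hoxa9, Prmt1 and Ctnnb1; 1 of these is not reported here, and others are marked as chosen after their values were seen. The planned GC content, repeat share and motifs around summits were not analysed here, since no genome sequence was used. Precision is limited by 2 libraries per group and 1 dKO library. Alternatives changed the ranking, list length, thresholds, merging, width, chromosomes and libraries. The scripts were tested on simulated data.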

Additional observations from a re-analysis of the deposited data

How the results depend on the processing

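The counts of 263 regions stronger in HOXA9_KO and 287 stronger in PRMT1_KO depended on the strictness of the rule. With the lists as deposited they were 2562 and 3683, with peaks of −log10 q of at least 5 only 116 and 142, and with all lists at 27536 peaks, a choice made after seeing the data, 116 and 147. With the strong side limited to the strongest 9740 peaks they were 15 and 5. The HOXA9_KO direction then held 75% of the calls, against 47.8%. Leaving out 1 library in turn gave 416 to 672 and 552 to 757, where 1 library of a group then decides for it; without HOXA9_KO replicate 1 they were 672 and 552. These are the 2 settings in which HOXA9_KO had the higher count. Ranking by fold gave 336 and 342; merging at 100 bp, a width of at least 200 bp, all chromosomes, or leaving out chromosomes 6 and 7 gave 231 to 265 and 239 to 290.

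Shares held by the other genotypes fell with list length. At the dKO length WT held 0.760% of the regions stronger in HOXA9_KO and 4.01% of those stronger in PRMT1_KO, and Bcat_KO 0.570% and 1.74%. With any deposited peak Bcat_KO held 68.8% and 81.2%, and at 27536 peaks 40.1% and 61.7%. The WT and Bcat_KO shares stayed higher for the regions stronger in PRMT1_KO in each of these settings. The dKO shares could not change, since its list is no longer than any length used, and neither could the WT shares with any deposited peak. No paired analysis was possible because no label ties a replicate of one group to one of another and the counts and shares come from no test. Depth of 8.27 to 11.2 reads per kb limits which missing peaks can be told from weak ones.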
